A study of Mus musculus domesticus with 6 samples.

Results

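The RNA exosome core is built from the products of Exosc1 to Exosc9, and these 9 genes were read by symbol and Ensembl identifier from tables of 55359 genes in sorted mouse BFU-E. BFU-E, burst-forming erythroid progenitors, are the earliest cells committed to the red cell lineage. The cells came from fetal livers at stage E14.5, and all embryos carried floxed alleles of Exosc3 on both chromosomes (Exosc3 fl/fl). The 3 Cre-positive libraries came from embryos with Vav1-Cre, a transgene in which the Vav1 promoter drives the recombinase in blood cells, and the 3 Cre-negative libraries came from embryos without it. Per the labels every sample was sorted as GFP-positive, lineage-negative and Kit-positive with low CD24 and CD71, without saying how the GFP gate was set for Cre-negative embryos. The design text counts 2 samples from each of 3 litters. The labels do not say which exons are flanked by loxP sites, nor whether cells of several embryos were pooled. The p-values therefore rest on the spread between these samples. Since no label ties a replicate number to a litter, the main test did not match samples by litter.

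The exosome degrades and trims RNA from its 3′ end. In mammals 6 RNase PH-like proteins, Exosc4 to Exosc9, form a ring, and 3 proteins with RNA-binding domains, Exosc1, Exosc2 and Exosc3, form a cap over its entry pore. The core has no catalytic activity of its own in mammals: RNA is threaded through it to the nuclease Dis3, while Exosc10, a second nuclease, sits at the cap in the nucleus. In cultured mouse erythroid precursors the complex is known as a brake on maturation, and lowering its ring subunit Exosc8 advances their differentiation.

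Exosc3 is shown as sequence because it is the gene the Cre transgene targets. Its full-length transcript, ENSMUST00000030003 on the minus strand of chromosome 4 (GENCODE M21, GRCm38), is 1077 bases long in 4 exons, which hold 321, 150, 152 and 202 coding bases. The coding parts of the first 2 exons are whole multiples of 3 and those of the last 2 are not. Of its 825 coding bases, 30 on each side of the 3 exon junctions are given, 5′ to 3′, with the last base of the earlier exon and the first of the later one in capitals.
Exons 1 and 2: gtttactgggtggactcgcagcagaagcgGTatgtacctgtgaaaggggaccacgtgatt
Exons 2 and 3: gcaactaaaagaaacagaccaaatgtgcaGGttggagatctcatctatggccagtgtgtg
Exons 3 and 4: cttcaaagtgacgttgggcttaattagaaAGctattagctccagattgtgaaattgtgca

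Exosc6 is shown because its sequence limits what can be measured. Its transcript is a single exon of 1326 bases on the plus strand of chromosome 8, and it lies whole inside a 5750-base transcript of Aars, the alanyl-tRNA synthetase gene, on the same strand. It fills bases 4425 to 5750 of that transcript, after the Aars coding part. All 1296 windows of 31 bases in the Exosc6 transcript also occur in Aars. The first 30 coding bases of Exosc6 are given beside bases 4457 to 4486 of the Aars transcript, which are noncoding in Aars, with the Exosc6 start codon in capitals in both.
Exosc6: ATGccgggagaccatcgccgcatccgcggg
Aars: ATGccgggagaccatcgccgcatccgcggg

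The libraries held between 89629949 and 124931215 expected counts. All 11 erythroid progenitor markers were present in all 6 libraries, with summed levels of 1430 to 1759 CPM (expected counts after scaling each library to one size) in Cre-positive and 1456 to 1618 CPM in Cre-negative libraries. Reads of the eGFP reporter, which was listed beside the mouse genes, averaged 37.7 ± 1.45 CPM in Cre-positive and 0.844 ± 0.798 CPM in Cre-negative libraries (SD, n = 3 each), with no overlap, although the labels give the GFP-positive sort for all 6. Kit, a receptor used in the sort, averaged 346 ± 10.5 CPM in Cre-positive and 395 ± 26.7 CPM in Cre-negative libraries. Cd24a averaged 159 ± 23.9 CPM in Cre-positive and 110 ± 32.9 CPM in Cre-negative libraries. Tfrc, which encodes CD71, averaged 248 ± 89.0 CPM in Cre-positive and 241 ± 66.5 CPM in Cre-negative libraries (SD, n = 3 each). Kit was lower and Cd24a higher in every Cre-positive library than in every Cre-negative one, while Tfrc overlapped. Groups did not overlap for 15.2% of all tested genes in either direction. The edgeR adjusted p was 0.614 for Kit and 0.558 for Cd24a. Hepatocyte markers summed to 0 to 0.717 CPM in Cre-positive and 0 to 1.08 CPM in Cre-negative libraries, with Afp, Ttr and Serpina1a at 0. The 9 neutrophil and monocyte markers summed to 232 to 526 CPM in Cre-positive and 577 to 1509 CPM in Cre-negative libraries, with Ly6c2 at 0 throughout. The 6 lymphoid markers summed to 1.59 to 7.66 CPM in Cre-positive and 31.5 to 108 CPM in Cre-negative libraries, with Cd3e and Dntt at 0 throughout. In each Cre-positive library 4 of the 6 were at 0, against 3, 3 and 2 of the 6 in Cre-negative replicates 1, 2 and 3. Stem and multipotent markers summed to 77.1 to 216 CPM in Cre-positive and 210 to 455 CPM in Cre-negative libraries, with overlap. Megakaryocyte markers summed to 50.3 to 90.6 CPM in Cre-positive and 41.3 to 76.1 CPM in Cre-negative libraries, also with overlap. Sums of mast cell and basophil markers and of endothelial and stromal markers overlapped too. The part of these other lineages in the values of the core genes was not tested. For genes seen in a single library the median there was 107 reads.

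Exosc3, the targeted cap subunit (ENSMUSG00000028322), was read first as a check of the labels. It had 26.8, 22.1 and 30.2 CPM in Cre-positive replicates 1, 2 and 3, against 51.9, 44.3 and 48.0 CPM in the Cre-negative replicates. Every Cre-positive library lay below every Cre-negative one, at 54.8% ± 8.47 (SD, n = 3) of the Cre-negative mean. The log2 fold change was -0.87 (SE 0.22). Its 95% interval runs from -1.36 to -0.38, or from 0.390 to 0.771 as a fold. With edgeR's quasi-likelihood test the unadjusted p was 0.00298 and the adjusted p over 13117 tested genes was 0.259, and 150 genes had a smaller p, 60 of them lower in Cre-positive cells. By DESeq2 it passed, with an adjusted p of 0.00296, and over all alternatives the adjusted p lay between 0.00296 and 0.582. In sorted bulk cells, fewer cells with the transcript and less transcript per cell cannot be told apart. The summed neutrophil and monocyte markers and the summed lymphoid markers were lower in the same 3 libraries. The sums of the other marker lists overlapped between groups. A link to Exosc3 was not tested.

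Exosc3 was also the 1 core gene whose groups did not overlap. Of the 9 core genes 8 had enough counts to be tested, all but Exosc6. By edgeR 0 of the 8 passed an adjusted p of 0.05, where 0.122% of all tested genes passed, all of them higher in Cre-positive cells and 0% lower. At an unadjusted p under 0.05 there was 1 core gene, Exosc3, against 8.23% of all tested genes, 4.19% lower and 4.05% higher in Cre-positive cells. DESeq2 also called 1 of the 8, Exosc3, against 4.42% of genes, 2.16% lower and 2.25% higher, and limma-voom called 0, against 0.152%. Groups did not overlap for 1 of 8, against 15.2% of all tested genes in either direction and 7.66% lower and 7.53% higher in Cre-positive cells. The median log2 fold change of the 7 tested partners of Exosc3 was -0.11, against -0.01 over all tested genes, with 5 below and 2 above 0.

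**Figure D1:**
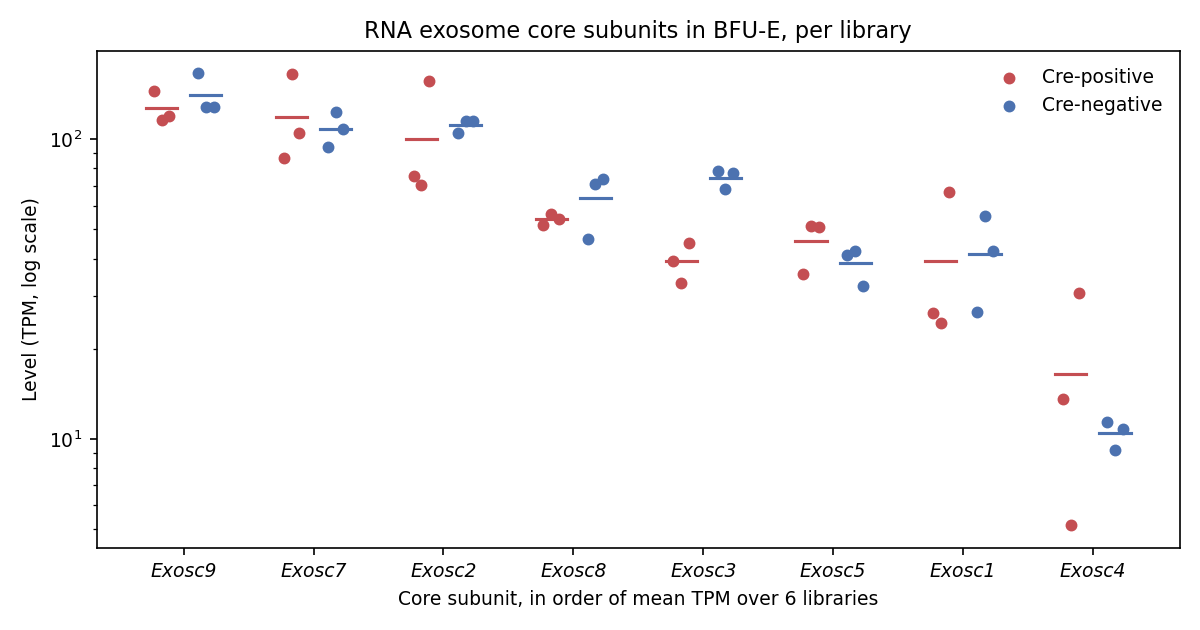
Level of 8 core subunits in TPM (log axis) in each library, Cre-positive in red and Cre-negative in blue, with a line at each group's mean of 3 libraries. Exosc3 is the gene whose red and blue points do not overlap, at 33.1 to 45.1 TPM in Cre-positive and 68.0 to 78.1 TPM in Cre-negative libraries; Exosc6 is left out because its reads are shared with Aars.

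The other cap subunits, Exosc2 and Exosc1, sit beside Exosc3 over the entry pore. Exosc2, whose human counterpart is mutated in a syndrome with retinitis pigmentosa and hearing loss, had 94.0, 85.7 and 135 CPM in the Cre-positive replicates, against 119, 114 and 121 CPM in the Cre-negative replicates. Cre-positive replicate 3 was above all Cre-negative libraries and the other two Cre-positive libraries were below them. Its log2 fold change was -0.17 (SE 0.17, 95% interval -0.56 to 0.22, edgeR adjusted p = 0.946). The coefficient of variation of Exosc2 was 25.0% in Cre-positive and 3.16% in Cre-negative libraries. Its median over all tested genes was 26.7% in Cre-positive and 26.9% in Cre-negative libraries. Over genes averaging at least 1000 counts these medians were 17.2% and 17.3%. A difference in spread between groups was not tested.

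Exosc1 makes the smallest of the cap proteins. It had 16.7, 20.8 and 34.3 CPM in the Cre-positive replicates, against 21.3, 38.2 and 27.7 CPM in the Cre-negative replicates. The groups overlapped, and each spread widely, by 2.06-fold between the highest and lowest Cre-positive library and 1.79-fold between the Cre-negative ones. Its log2 fold change was -0.28 (SE 0.35, 95% interval -1.07 to 0.50, edgeR adjusted p = 0.965). Without Cre-positive replicate 3, the highest of its group for both Exosc1 and Exosc2, the log2 fold changes were -0.64 and -0.39. They were -0.04 for Exosc1 without Cre-negative replicate 2 and -0.04 for Exosc2 without Cre-positive replicate 2, and none of these passed.

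In the ring, Exosc9 pairs with Exosc4. Exosc9 had the highest mean TPM of the core genes over the 6 libraries, though Exosc7 exceeded it in Cre-positive replicate 2 and Exosc2 in Cre-positive replicate 3. It had 171, 134 and 131 CPM in the Cre-positive replicates, against 183, 147 and 141 CPM in the Cre-negative replicates. The groups overlapped, and the log2 fold change was -0.11 (SE 0.15, 95% interval -0.45 to 0.23, edgeR adjusted p = 0.972). As a fold that interval runs from 0.734 to 1.17. The gene record of Exosc9 overlaps that of the cyclin A gene Ccna2 on the opposite strand. Ccna2 averaged 263 ± 8.84 CPM in Cre-positive and 266 ± 16.3 CPM in Cre-negative libraries (SD, n = 3 each). The strand setting of the counting is not given in the sources used here, and overlap of exons was not tested. It is therefore not known whether reads from the overlap were told apart. The same limit holds for the other core genes whose gene records overlap one on the opposite strand. These are Exosc8 with Supt20, Exosc3 with Dcaf10, Exosc4 with Oplah, Exosc5 with Tmem91 and Exosc2 with Gm13427. Supt20 averaged 71.4 ± 5.17 CPM in Cre-positive and 56.5 ± 9.33 CPM in Cre-negative libraries (SD, n = 3 each). Gm13427 was listed at 0 CPM in both groups, as was Gm12585, whose gene record overlaps Exosc3 on the same strand. Oplah averaged 1.66 CPM in Cre-positive and 0.356 CPM in Cre-negative libraries, and Tmem91 0.0966 CPM in Cre-positive and 0 CPM in Cre-negative libraries.

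Exosc4, the ring partner of Exosc9, spread most between libraries of 1 group among the tested core genes. It had 18.3, 6.77 and 40.5 CPM in the Cre-positive replicates, against 14.9, 12.0 and 13.4 CPM in the Cre-negative replicates. The Cre-positive libraries lay on both sides of the Cre-negative ones, with a 5.99-fold range in CPM, while the Cre-negative libraries differed by 1.24-fold. The counts behind the lowest and highest were 599 reads in Cre-positive replicate 2 and 4674 in Cre-positive replicate 3. The log2 fold change was 0.70 (SE 0.55, 95% interval -0.54 to 1.95, edgeR adjusted p = 0.899). It was -0.10 without Cre-positive replicate 3 and 1.13 without Cre-positive replicate 2.

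A second ring pair is Exosc8 and Exosc5. Exosc8, whose human counterpart is mutated in a childhood disorder of the cerebellum and motor neurons, had 46.5, 43.8 and 45.7 CPM in the Cre-positive replicates, against 35.1, 49.6 and 64.8 CPM in the Cre-negative replicates. All 3 Cre-positive libraries lay inside the Cre-negative range, with a coefficient of variation of 3.06% in Cre-positive and 29.8% in Cre-negative libraries. Over genes averaging at least 1000 counts the medians were 17.2% in Cre-positive and 17.3% in Cre-negative libraries. For Exosc8 the log2 fold change was -0.14 (SE 0.24, 95% interval -0.67 to 0.40, edgeR adjusted p = 0.991). Exosc5 had 19.8, 40.9 and 38.5 CPM in the Cre-positive replicates, against 38.6, 30.2 and 23.7 CPM in the Cre-negative replicates. These groups overlapped too, and the log2 fold change was 0.10 (SE 0.33, 95% interval -0.63 to 0.83, edgeR adjusted p = 0.999).

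The third ring pair is Exosc7 and Exosc6. Exosc7 had 59.5, 82.6 and 67.0 CPM in the Cre-positive replicates, against 61.8, 87.0 and 68.3 CPM in the Cre-negative replicates. The groups covered nearly the same range, and the log2 fold change was -0.05 (SE 0.19, 95% interval -0.48 to 0.38, edgeR adjusted p = 0.999). Exosc6 was listed at 14.76, 1170.12 and 0 expected counts in the Cre-positive replicates and at 0 in all 3 Cre-negative replicates. Because every base of its transcript also lies in Aars, these values give no level for Exosc6. Exosc6 took 0.0563%, 6.34% and 0% of the reads assigned to both genes in the Cre-positive replicates and 0% in each Cre-negative replicate. Aars, at 209 ± 13.4 CPM in Cre-positive and 247 ± 18.7 CPM in Cre-negative libraries (SD, n = 3 each), had a log2 fold change of -0.24 (SE 0.10, edgeR adjusted p = 0.579).

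**Figure D2:**
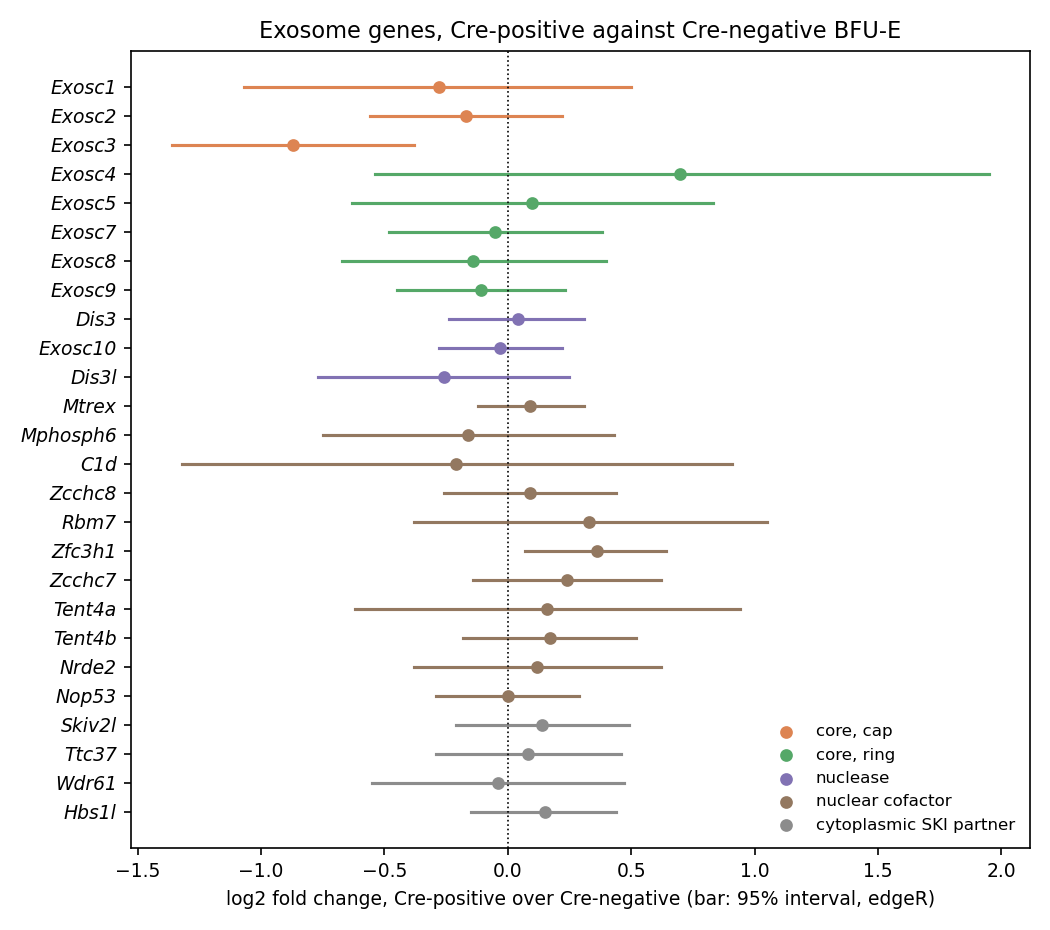
Log2 fold change of Cre-positive over Cre-negative BFU-E for the 8 tested core subunits and 18 exosome nucleases and cofactors, with 95% intervals from edgeR. The interval of Exosc3 runs from -1.36 to -0.38, and those of the other 7 core subunits include 0, the widest being Exosc4 from -0.54 to 1.95.

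Levels were compared between genes in the deposited TPM, which allow for transcript length, as means over all 6 libraries with their range. Exosc9 stood at 134 TPM (116 to 166), Exosc7 at 114 TPM (86.6 to 165) and Exosc2 at 106 TPM (70.2 to 156). These 3 exceeded between 90.2% and 92.4% of all tested genes, whose median was 13.4 TPM. Exosc8 followed at 58.9 TPM (46.6 to 73.5), Exosc3 at 56.8 TPM (33.1 to 78.1) and Exosc5 at 42.2 TPM (32.3 to 51.2). Exosc1 at 40.3 TPM (24.4 to 66.6) and Exosc4 at 13.5 TPM (5.15 to 30.8) were lowest among the tested members. Every neighbouring pair in this order overlapped in range over the 6 libraries. Within libraries, Exosc2 was above Exosc8 in 6 of 6 and Exosc1 above Exosc4 in 6 of 6, while Exosc7 was above Exosc2 in 3 of 6 and Exosc5 above Exosc1 in 3 of 6. By group mean, Exosc3 ranked 6 among the 9 core genes in Cre-positive libraries and 4 in Cre-negative libraries. In Cre-positive libraries its mean of 39.1 ± 6.02 TPM was not separated from that of Exosc1, 39.1 ± 23.8 TPM (SD, n = 3 each).

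Ring pairs with both members tested had unequal levels in TPM, clearly so for Exosc9 and Exosc4 and less so for Exosc8 and Exosc5. The pair of Exosc7 and Exosc6 could not be compared. The ratio of Exosc9 to Exosc4 in TPM was 10.7, 22.5 and 3.90 in the Cre-positive replicates, against 14.6, 13.9 and 11.9 in the Cre-negative replicates. The ratio of Exosc8 to Exosc5 was 1.46, 1.10 and 1.07 in the Cre-positive replicates, against 1.13, 1.67 and 2.28 in the Cre-negative replicates. Both ratios exceeded 1 in all 6 libraries, and for both the groups overlapped.

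The summed level of the 9 core genes, with Exosc6 at its listed values, was 546 ± 78.4 TPM in Cre-positive and 589 ± 21.7 TPM in Cre-negative libraries (SD, n = 3 each). Without Exosc6 the sum was 541 ± 79.9 TPM in Cre-positive and 589 ± 21.7 TPM in Cre-negative libraries. Exosc3 made up 8.27%, 6.18% and 7.17% of the sum over all 9 in the Cre-positive replicates, against 13.7%, 11.1% and 13.2% in the Cre-negative replicates. The groups did not overlap, with means of 7.21% ± 1.05 in Cre-positive and 12.7% ± 1.38 in Cre-negative libraries, a difference of -5.46 percentage points, or -3.74 points when the shares are taken from CPM. Exosc5 had a larger share in Cre-positive libraries without overlap, 8.37% ± 1.08 against 6.56% ± 0.934 in Cre-negative libraries, but from CPM its shares overlapped, at 6.94% ± 2.38 in Cre-positive and 5.93% ± 1.34 in Cre-negative libraries (SD, n = 3 each). The other members overlapped in share on both scales. Shares are parts of one whole, so a smaller Exosc3 share makes the summed share of the other members larger. The TPM of Exosc5 itself overlapped, at 35.4, 51.2 and 50.9 in the Cre-positive replicates, against 41.2, 42.5 and 32.3 in the Cre-negative replicates.

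**Figure D3:**
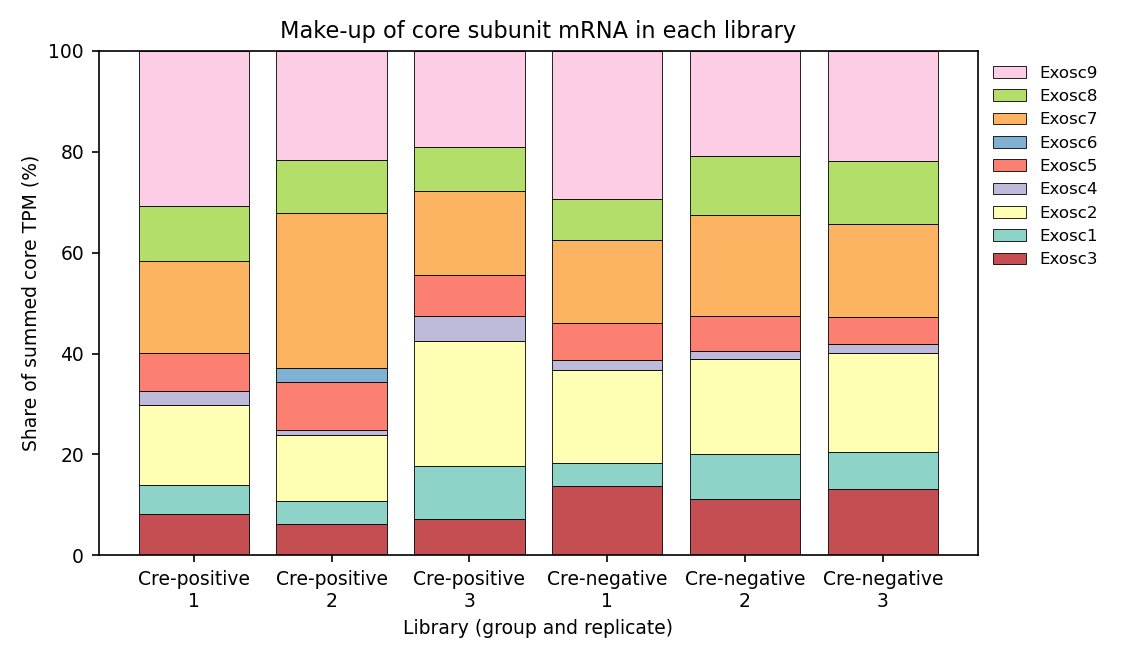
Share of each core subunit in the summed TPM of the 9 genes (bars stacked to 100%), for the 3 Cre-positive libraries and then the 3 Cre-negative libraries. Exosc6, whose reads are shared with Aars, is included at its listed values. The Exosc3 share, at the base of each bar, is 6.18% to 8.27% in Cre-positive and 11.1% to 13.7% in Cre-negative libraries.

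Whether Exosc3 differed from its partners was compared within each library, as the ratio of its TPM to that of each of the 7 tested partners. The ratio to Exosc9 was 0.269, 0.286 and 0.375 in the Cre-positive replicates, against 0.470, 0.533 and 0.604 in the Cre-negative replicates. The ratio to Exosc2, its neighbour in the cap, was 0.520, 0.471 and 0.289 in the Cre-positive replicates, against 0.745, 0.591 and 0.671 in the Cre-negative replicates. In 6 of 7 pairs all Cre-positive libraries were below all Cre-negative ones. The same held for 52.3% of the 10674 other tested genes above 0 TPM in every library when each was used in place of the partner, and the count for 7 partners is read against that share. The exception was Exosc1, with ratios of 1.17 ± 0.433 in Cre-positive and 2.00 ± 0.869 in Cre-negative libraries (SD, n = 3 each). For each of the 6 a two-sided exact permutation test gave 0.100, the lowest p possible with 3 libraries a group, and 0.117 with Benjamini-Hochberg adjustment over the 7 pairs, so this test cannot reach 0.05 at this group size. The 7 ratios share the same Exosc3 values and are not independent.

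**Figure D4:**
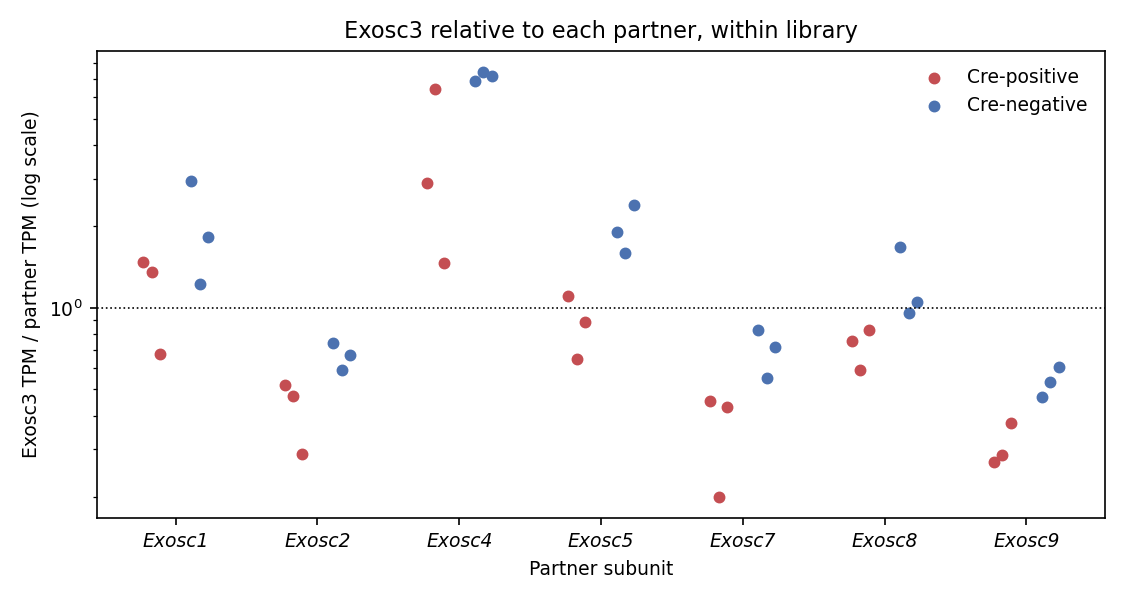
Ratio of Exosc3 TPM to the TPM of each of 7 partner subunits within a library (log axis), Cre-positive in red and Cre-negative in blue, with a dotted line at 1. The groups do not overlap for 6 partners and overlap for Exosc1.

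Nucleases and cofactors work on or through the core, and 18 such genes were all tested. By edgeR 0 of 18 passed the adjusted threshold, 1 had an unadjusted p under 0.05, and DESeq2 and limma-voom called 0, against the same shares of all genes as above. Their median log2 fold change was 0.09, with 13 above and 5 below 0 and a range of -0.26 to 0.36. Groups were separated for 2 of 18, Zfc3h1 and Mtrex, both higher in Cre-positive cells, against 15.2% of all tested genes in either direction and 7.53% higher. Mtrex, named for that separation after its values were seen, encodes the helicase that feeds RNA to the nuclear exosome and had 208 ± 2.20 CPM in Cre-positive and 195 ± 8.13 CPM in Cre-negative libraries (SD, n = 3 each), with a log2 fold change of 0.09 (edgeR adjusted p = 0.944).

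Zfc3h1, a zinc finger protein that targets polyadenylated nuclear RNA to the exosome, had the smallest p of the 18. It had 122, 155 and 147 CPM in the Cre-positive replicates, against 116, 106 and 110 CPM in the Cre-negative replicates. The log2 fold change was 0.36 (SE 0.13, 95% interval 0.07 to 0.64), with an unadjusted p of 0.0206 and an adjusted p of 0.466 (edgeR, range 0.0821 to 0.751 over the alternatives). Zcchc7, a zinc finger protein of the nuclear polyadenylation complex, stood at 101 ± 10.1 CPM in Cre-positive and 85.9 ± 17.0 CPM in Cre-negative libraries. Tent4b, the poly(A) polymerase of that complex, stood at 85.4 ± 12.8 CPM in Cre-positive and 75.8 ± 4.88 CPM in Cre-negative libraries. Both overlapped between groups (SD, n = 3 each). Rbm7, the RNA-binding protein of the nuclear exosome targeting complex, had 44.5, 34.2 and 26.6 CPM in the Cre-positive replicates, against 28.2, 18.3 and 37.1 CPM in the Cre-negative replicates, and these overlapped between groups.

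The nucleases that act with the core, Dis3 and Exosc10, are given for that role and not by the rule for named genes. Dis3 had 278, 268 and 205 CPM in the Cre-positive replicates, against 247, 238 and 249 CPM in the Cre-negative replicates. Exosc10 had 162, 146 and 149 CPM in the Cre-positive replicates, against 166, 158 and 143 CPM in the Cre-negative replicates. The groups overlapped for both, with log2 fold changes of 0.04 (95% interval -0.24 to 0.31) for Dis3 and -0.03 (95% interval -0.28 to 0.22) for Exosc10 and an adjusted p of 0.999 each (edgeR). In the cytoplasm the exosome acts with the nuclease Dis3l and the SKI complex. Dis3l stood at 53.3 ± 13.2 CPM in Cre-positive and 63.8 ± 11.4 CPM in Cre-negative libraries, a log2 fold change of -0.26 (SE 0.23). Hbs1l, of which a splice form links SKI to the exosome in human cells, stood at 115 ± 4.87 CPM in Cre-positive and 104 ± 11.9 CPM in Cre-negative libraries (SD, n = 3 each). Both overlapped between groups. The adjusted p was 0.927 for both (edgeR).

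Several core genes start beside another gene on the opposite strand. By the gene records of GENCODE M21 (GRCm38), 6 of the 9 had such a neighbour with its start within 2000 bases: Zdhhc16 for Exosc1, Dcaf10 for Exosc3, Oplah for Exosc4, Bckdha for Exosc5, Zdhhc3 for Exosc7 and Alg5 for Exosc8. All 6 neighbours were tested and 0 passed (edgeR), with unadjusted p from 0.207 to 0.848. Dcaf10, which encodes a ubiquitin ligase adaptor, had 27.2, 42.5 and 34.9 CPM in the Cre-positive replicates, against 32.9, 34.5 and 45.5 CPM in the Cre-negative replicates. The groups overlapped, with a log2 fold change of -0.11 (SE 0.25, adjusted p = 0.998, edgeR). The gene records of Exosc3 and Dcaf10 also overlap on opposite strands. Whether their exons overlap was not tested. With the strand setting of the counting not given, it is not known whether reads from that overlap were told apart.

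The deposited mean transcript length, which reflects the isoforms that the counting model favoured in a library, differed least for Exosc3, Exosc4, Exosc6 and Exosc9. For Exosc3 it was 1077 bases in all 3 Cre-positive libraries, the length of the full-length transcript, against 1077, 1060 and 1052 bases in the Cre-negative replicates. Whether reads of a recombined Exosc3 transcript were assigned to the full-length one was not tested. Lengths were least stable for Exosc5, from 936 to 1380 bases, and Exosc1, from 896 to 1282 bases, and TPM moves with them. For Exosc2 they were 1691, 1691 and 1289 bases in the Cre-positive replicates, against 1601, 1433 and 1550 bases in the Cre-negative replicates, and its highest TPM, 156 in Cre-positive replicate 3, stands with the shortest length. No core gene had groups without overlap in length.

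**Figure D5:**
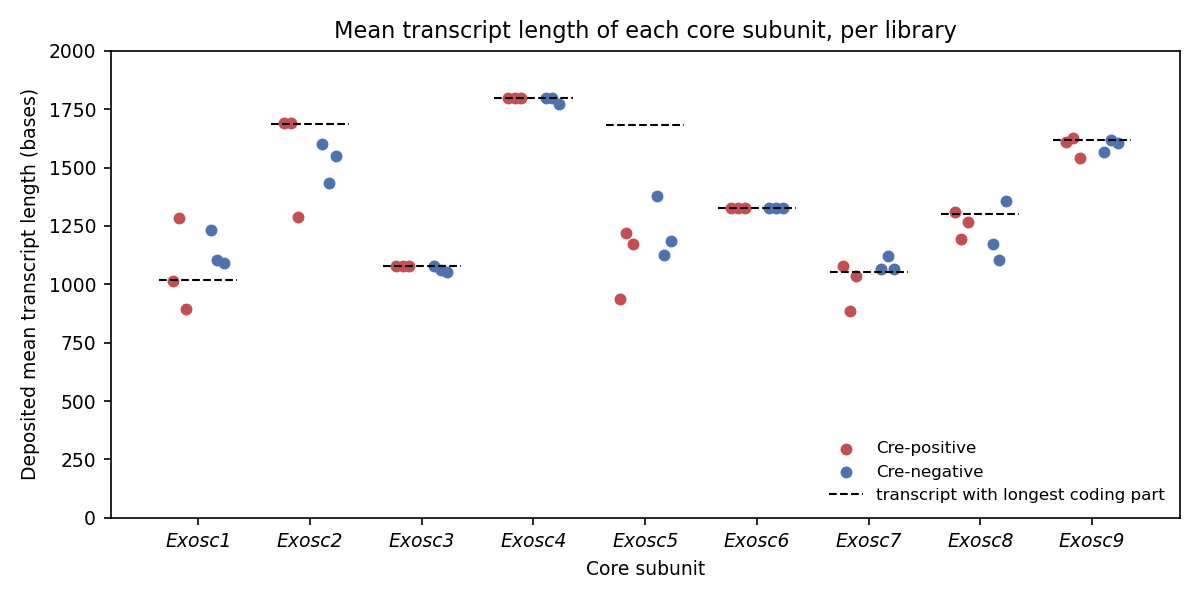
Deposited mean transcript length of each core subunit in bases, per library, Cre-positive in red and Cre-negative in blue, with a dashed line at the annotated transcript with the longest coding part. Exosc3 lies at 1052 to 1077 bases in all libraries, while Exosc5 runs from 936 to 1380 bases.

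The 5 genes whose pattern over the 6 libraries was most like that of Exosc3 were not core genes. Only 7 of the genes compared were core partners, so this says little about the partners. Likeness was the root mean square difference of log2 CPM, centred on each gene's mean, among 8337 other genes whose counts averaged 1000 or more. The closest were Rpgrip1l, a protein of the ciliary transition zone, at 0.08, and Pfkp, a phosphofructokinase, at 0.12. Arpc1b, a subunit of the Arp2/3 actin-branching complex, followed at 0.13, Txndc17, a thioredoxin-like protein, at 0.14, and Foxp4, a forkhead transcription factor, at 0.15. Rpgrip1l had 20.1, 18.4 and 24.3 CPM in the Cre-positive replicates, against 37.1, 32.6 and 35.1 CPM in the Cre-negative replicates. The 5 were picked for this likeness, so their differences are a description, and their edgeR adjusted p ran from 0.235 to 0.430. Among the partners of Exosc3 the closest was Exosc2, at 0.36 and rank 600 of 8337 in likeness, and the farthest was Exosc4, at 0.87.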

How the data were processed

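Total RNA of sorted BFU-E went into stranded Takara SMARTer Pico libraries, per the labels. The submitters' processing notes name STAR 2.5.3a, RSEM 1.3.0 and the build GRCm39 (mm39). Annotation release and strand setting: not given in the sources used here. Every gene in the deposited tables has an expected count, the reads that RSEM's model assigns to it, with TPM, FPKM and mean and effective transcript lengths, per the file headers. FPKM was not used. Of the expected counts 2.64% were not whole, and they were rounded before testing.

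Of 55359 entries 52081 matched a symbol by identifier without its version. Genes were kept by filterByExpr (13117), scaled by TMM factors (0.988 to 1.02) and tested with edgeR 4.0.16 (glmQLFit, glmQLFTest, R 4.3.3), Cre-positive over Cre-negative, with p adjusted by Benjamini-Hochberg over these genes (threshold 0.05). Standard errors are the log2 fold change over the square root of F, and 95% intervals use the moderated degrees of freedom. The fit was tested on simulated counts. CPM uses TMM-scaled totals. Ratios were compared by exact permutation. Alternatives were DESeq2 1.42.0, limma-voom (limma 3.58.1), other scalings, filters and length offsets, a replicate block and leaving out each library.

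Named were all core genes, the 6 nucleases and cofactors with the smallest p, neighbours within 2000 bases and the 5 genes most like Exosc3. Members and lists were chosen with earlier results of these data known. The files are on GRCm39 and the reference annotation on GRCm38, so no genome coordinates are given, and transcripts were matched by identifier. Expression patterns of the libraries correlated at 0.778 to 0.832 across genes, so none is a copy of another. The common biological coefficient of variation in the edgeR fit was 85.4%. The eGFP reporter, at a log2 fold change of 5.48 (SE 1.16), had an adjusted p of 0.187 (edgeR). A gene that did not pass may therefore still differ between groups.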

Additional observations from a re-analysis of the deposited data

How the results depend on the processing

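The 8 tested members were each recomputed under 14 alternatives (Exosc6 was not), and 1 of 112 recomputed changes gained a call: Exosc3 by DESeq2, at a log2 fold change of -0.87 (adjusted p = 0.00296), which took the number of core subunits called to 1. The cause was not tested. Exosc3 kept its direction in all 14, from -0.98 without Cre-positive replicate 3 to -0.75 without Cre-positive replicate 2 (edgeR adjusted p 0.274 and 0.582). Nucleases and cofactors had 0 calls in all 14. Uncalled members turned direction in 9 recomputed changes. Exosc7 was 0.16 with effective length offsets. Leaving out each library gave -0.64 to -0.04 for Exosc1, -0.39 to -0.04 for Exosc2, -0.10 to 1.13 for Exosc4, -0.08 to 0.36 for Exosc5, -0.19 to 0.10 for Exosc7, -0.34 to 0.10 for Exosc8 and -0.24 to 0.02 for Exosc9.

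Calls over all genes numbered 16 higher and 0 lower in Cre-positive cells by edgeR. They numbered 314 and 302 by DESeq2, 33 and 6 with no filter on low counts, and 58 and 26 when genes averaging under 1000 counts were left out, which was chosen after seeing the data. With effective length offsets 6 were higher. Without single libraries the higher calls ranged from 7 without Cre-positive replicate 2 and 8 without Cre-positive replicate 1 to 15, and the lower from 0 to 3, with 3 without Cre-positive replicate 3 and 3 without Cre-negative replicate 2. The causes were not tested. With the replicate number as a block (replicate block) 38 genes were higher and 18 lower, and Exosc3 stood at -0.88 (adjusted p = 0.261). No label ties a replicate number to a litter. Same-numbered libraries deviated from their group means with correlations of 0.026, 0.053 and 0.073 across genes, and each library correlated best with its own number, a hint from the data and not from the design.

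The difference in the Exosc3 share of the core was -5.46 percentage points, -3.74 when taken from CPM, which does not allow for transcript length, -5.40 without Exosc6, an alternative chosen after seeing the data, and -6.24 to -4.93 without single libraries.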
